A study of Mus musculus with 12 samples.

Results

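The IFIT family (interferon-induced proteins with tetratricopeptide repeats) was represented by 5 mouse genes: Ifit1, Ifit2, Ifit3, Ifit3b and Ifit1bl1. They were taken by gene symbol from a table of 55421 genes, and all 5 passed the low-count filter that left 18108 genes for testing. The filter asked for 0.209 CPM (counts scaled to library size) in 3 libraries; Ifit3b reached this in 2 and Ifit1bl1 in 1 of the 6 untreated libraries, so these 2 were tested only because of the treated libraries, where they are high. The family was chosen from results of these same libraries, in which its levels differed between treatments and between the EV labels, so the values of its members in those comparisons are a description. Counts of members past the test's threshold are to be read against the share of all genes that passed it, and nothing is concluded from them. Ifit1bl2, the other gene of the name in the table, was not among the members and is given beside them.

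RNA came from MOC2, a mouse oral squamous cell carcinoma line, in the form of 2 derivatives. MOC2-25 was labelled EV-Proficient and MOC2-27 was labelled EV-Deficient, extracellular vesicles (EVs) being the membrane particles that cells release, and release was blocked genetically in a gene that the labels do not name. Each derivative was sampled under DMSO and after 600 nM paclitaxel, a microtubule-stabilising drug, for 48 h, which gave 4 groups of 3 libraries: EV-proficient DMSO, EV-deficient DMSO, EV-proficient paclitaxel and EV-deficient paclitaxel. The study's question concerned the role of such vesicles in how senescent tumour cells signal to their surroundings. There was 1 derivative line for each EV label, so an effect of the label and a difference between lines cannot be told apart. The labels do not say whether the 3 libraries of a group came from separate cultures, and the p-values below measure the spread between these libraries, which may be technical.

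IFIT proteins are made at low levels in resting cells and in large amounts after type I or type III interferon binds its receptor, or after nucleic acid sensors activate interferon regulatory factors directly. They are built of helical repeats that form a binding groove for RNA. Ifit1 recognises RNA whose 5′ cap lacks the ribose methyl mark of mature host messenger RNA and blocks its translation, and family members also bind the translation initiation factor eIF3 and each other.

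The 5 genes lie in 1 cluster of 99316 bases, chr19:34550694-34650009 on GRCm38. In chromosomal order they are Ifit2, Ifit3, Ifit1bl1, Ifit3b and Ifit1, with Ifit1bl2 between Ifit3b and Ifit1. Ifit1bl1 and Ifit1bl2 are on the minus strand and the others on the plus strand, all are annotated as protein-coding, and no other annotated gene overlaps a member. The starts of Ifit1bl2 and Ifit1 face away from each other and are 128 bases apart.

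The 250 bases before the annotated start of each member are shown because the core of the interferon-stimulated response element, the binding site of the factors that interferon activates, occurred in 4 of the 5 members' windows. Each runs 5′ to 3′ on the gene's own strand and was taken from RefSeq on GRCm38.p6, at chr19:34640639-34640888 for Ifit1, chr19:34583279-34583528 for Ifit3, chr19:34607707-34607956 for Ifit3b, chr19:34601969-34602218 (minus strand) for Ifit1bl1 and chr19:34550444-34550693 for Ifit2. Capitals mark the core as searched, GAAA, any 2 bases, GAAA, on either strand; in these members it lies on the opposite strand and so reads as TTTC, 2 bases, TTTC.
Ifit1: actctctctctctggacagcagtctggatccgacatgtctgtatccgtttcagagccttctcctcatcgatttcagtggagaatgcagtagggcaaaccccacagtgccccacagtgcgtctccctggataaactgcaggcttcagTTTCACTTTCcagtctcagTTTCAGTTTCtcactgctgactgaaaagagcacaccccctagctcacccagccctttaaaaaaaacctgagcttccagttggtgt
Ifit3: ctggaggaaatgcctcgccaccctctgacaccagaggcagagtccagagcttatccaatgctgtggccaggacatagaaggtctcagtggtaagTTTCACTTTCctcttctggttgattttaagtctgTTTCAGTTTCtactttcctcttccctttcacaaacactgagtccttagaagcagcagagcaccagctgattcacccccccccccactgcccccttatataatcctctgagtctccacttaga
Ifit3b: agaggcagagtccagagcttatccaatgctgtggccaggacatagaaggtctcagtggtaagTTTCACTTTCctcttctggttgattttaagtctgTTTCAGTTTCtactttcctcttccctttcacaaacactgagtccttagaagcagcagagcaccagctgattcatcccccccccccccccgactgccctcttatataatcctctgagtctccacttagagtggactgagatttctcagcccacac
Ifit1bl1: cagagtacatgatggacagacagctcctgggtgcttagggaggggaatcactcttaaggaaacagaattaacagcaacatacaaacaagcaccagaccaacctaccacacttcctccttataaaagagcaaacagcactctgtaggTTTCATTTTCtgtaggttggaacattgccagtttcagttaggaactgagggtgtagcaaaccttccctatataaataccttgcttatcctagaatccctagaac
Ifit2: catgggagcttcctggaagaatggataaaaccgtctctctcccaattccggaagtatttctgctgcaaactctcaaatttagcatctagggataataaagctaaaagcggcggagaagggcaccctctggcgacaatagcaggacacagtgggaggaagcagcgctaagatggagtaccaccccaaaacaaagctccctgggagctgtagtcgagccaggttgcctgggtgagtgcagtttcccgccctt

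Counted from the RefSeq start, with negative positions before it, Ifit1 held the core at -104 and -85. Ifit3 held it at -156 and -122, and Ifit3b at -188 and -154. The Ifit3 and Ifit3b windows were 94.5% identical over 274 aligned columns. Ifit1bl1 held 1 core in each of its 2 annotated windows, at -104 and -23. Ifit2, which has 2 annotated windows, held the core in neither. Over all 32851 RefSeq windows of the same 300 bases (250 before and 50 after the start), 3.44% held at least 1 such core and 0.225% held 2 or more. The core of the gamma-activated site, TTC, any 3 bases, GAA, which reads the same on both strands, was in 8.3% of all windows and, among the members, only in the first Ifit2 window, at -241. These matches describe letters in the windows; binding was not measured.

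**Figure D1:**
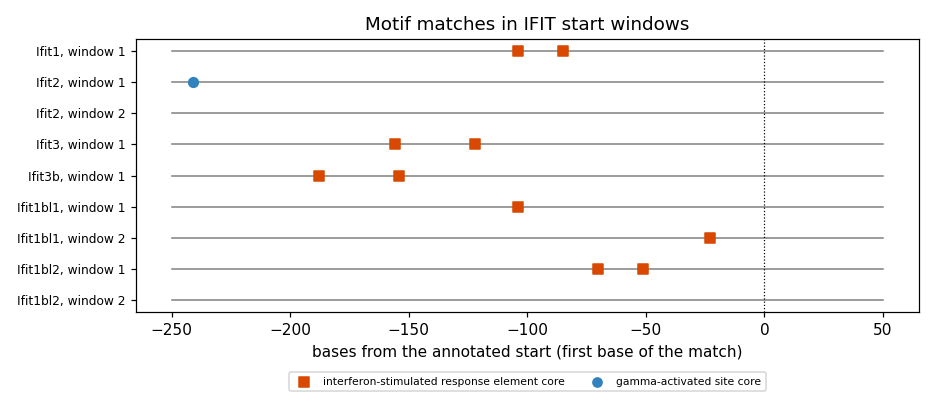
Positions of motif matches in the annotated start windows of the 5 members and Ifit1bl2, with bases from the annotated start on the x axis and 1 line per window. Squares are interferon-stimulated response element cores and the circle is a gamma-activated site core. Ifit1, Ifit3, Ifit3b and Ifit1bl2 have 2 squares in their first window and Ifit2 has none. The 2 squares of Ifit1bl2 are the same bases as the 2 of Ifit1, read on the other strand.

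Ifit3 and Ifit3b are nearly the same gene in sequence. Their coding sequences (1209 bases and 403 residues each) were 99.1% identical and the encoded proteins 98.8%, and 51.2% of all 50-base stretches of Ifit3 transcripts also occurred in Ifit3b. Ifit1 and Ifit1bl1 proteins were 62.4% identical, and the other pairs among the 5 members were between 30.3% and 39.9%. Of the 50-base stretches, 7.13% in Ifit1 and 6.45% in Ifit1bl1 were shared with another gene, and 0 in Ifit2. How the counting treated reads that fit more than 1 gene is not given in the sources used here, so the division of reads between Ifit3 and Ifit3b is uncertain, and their sum is the safer quantity.

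Library totals ran from 23263472 to 62955757 counts. Levels are given as CPM, counts scaled to a common library size, on which 3 counts, taken here as the floor, correspond to between 0.0492 and 0.121 CPM; this floor covers counting error only. The 8 epithelial markers summed to between 4920 and 5310 CPM in EV-proficient DMSO, 5370 and 5820 in EV-deficient DMSO, 3390 and 3710 in EV-proficient paclitaxel and 3020 and 3140 in EV-deficient paclitaxel, so that the sum was lower under paclitaxel in both derivatives. In the same order of groups Krt8 averaged 2200, 1810, 895 and 970 CPM, Krt14 191, 681, 191 and 80, and Krt6a 41.9, 318, 15.5 and 2.48. Krt18 averaged 1270, 1480, 1040 and 717 CPM, and Cdh1 943, 859, 605 and 784. Epcam went against the sum, at 407, 439, 816 and 535 CPM, and so was higher under paclitaxel in both derivatives. Krt5 and Trp63, which define squamous basal cells, never passed 8 and 11 counts in a library. Of 8 leukocyte markers Siglech had 0 counts everywhere, Cd3e, Adgre1 and Lyz2 at most 2, 4 and 7, and Ptprc, Cd79a and Itgax at most 60, 68 and 55, while the list's summed level ran from 1.58 to 2.19 CPM in EV-proficient DMSO, 13.5 to 14 in EV-deficient DMSO, 13.1 to 15 in EV-proficient paclitaxel and 6.61 to 8.6 in EV-deficient paclitaxel, mostly from Csf1r. In the same order of groups, 4 fibroblast markers summed to 1.34 to 2.49, 2.38 to 3.16, 5.26 to 5.96 and 6.29 to 7.82 CPM, mostly from Pdgfra, and 3 endothelial markers to 2.31 to 2.49, 1.69 to 2.32, 2.55 to 3.02 and 3.28 to 4.26. Both of these sums were thus higher under paclitaxel, as the IFIT genes were. In EV-proficient libraries only Pecam1 of the endothelial markers was higher (0.383 to 1.18 CPM on average), while Cdh5 (1.39 to 1.03) and Kdr (0.638 to 0.575) were lower. The part of the marker genes in the results was not tested. A row added by the authors under the name dngfr also crossed the labels: it averaged 8.99 ± 3.23 CPM (SD, n = 3) in EV-proficient DMSO and 10.9 ± 1.42 in EV-deficient paclitaxel, but 2.15 ± 0.349 in EV-deficient DMSO and 3.24 ± 0.682 in EV-proficient paclitaxel. The labels do not say which cells carry this sequence, and whether any libraries were exchanged between the derivatives was not tested. Directions between EV labels therefore hold for the libraries as labelled; the average paclitaxel effect over both labels does not change under such an exchange and is given for each member and for the interferon pathway lists together.

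All 5 members were higher under paclitaxel than under DMSO in both derivatives, and the 3 paclitaxel libraries lay above the 3 DMSO libraries for every member in each derivative; this held for 33.1% of all genes tested in EV-proficient and 35.2% in EV-deficient libraries. In the EV-proficient libraries all 5 were called higher by edgeR's quasi-likelihood test at an adjusted p of 0.05, where 31.1% of all genes tested were called higher and 27.1% lower. In the EV-deficient libraries all 5 were again called higher, against 32.4% of all genes higher and 30.5% lower. Averaged over both labels 5 of 5 were called higher, against 37.1% of all genes higher and 31.3% lower. The members' median log2 fold change was 5.16 in EV-proficient and 6.42 in EV-deficient libraries, and the medians over all 18108 genes were 0.05 and 0.07. In bulk RNA, more expressing cells and more RNA per expressing cell cannot be told apart. The share of counts from mitochondrial genes was also higher under paclitaxel, 0.878% against 0.653% on average in EV-proficient and 1.27% against 0.644% in EV-deficient libraries, and its part in these results was not tested.

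**Figure D2:**
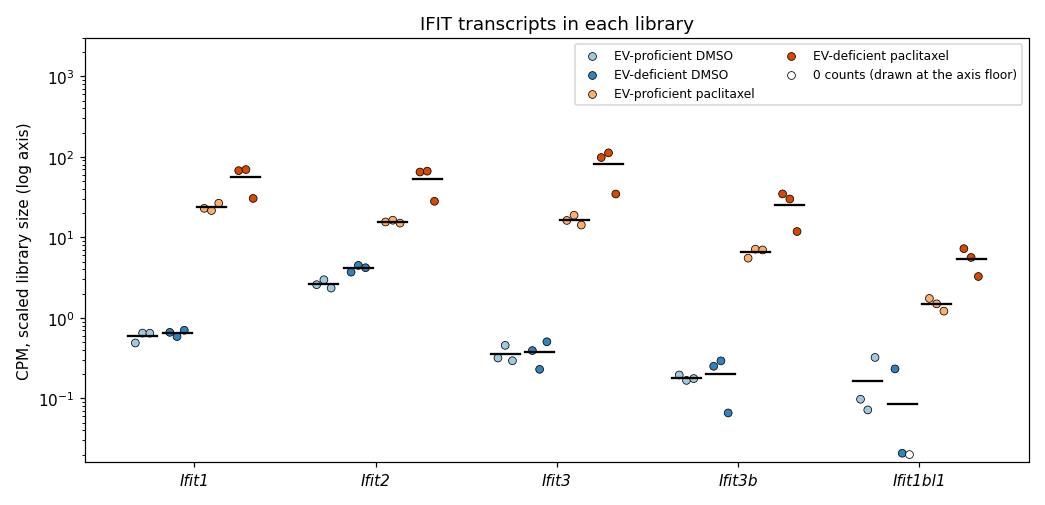
CPM of each IFIT gene in each of the 12 libraries on a log axis, with a point per library (replicates 1 to 3 from left to right) and a black line at each group's mean. Paclitaxel libraries lie above DMSO libraries for all 5 genes, and EV-deficient paclitaxel libraries lie above EV-proficient paclitaxel libraries; the open point at the axis floor is the library with 0 counts of Ifit1bl1.

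Ifit1, the member that reads the cap, was barely detected without drug. It had 20, 27 and 22 counts in EV-proficient DMSO replicates 1, 2 and 3 (0.592 ± 0.0911 CPM, SD, n = 3), and 37, 28 and 32 in EV-deficient DMSO (0.648 ± 0.0598 CPM). Under paclitaxel it had 1159, 1226 and 655 counts in the EV-proficient libraries (23.6 ± 2.56 CPM) and 3614, 3209 and 1852 in the EV-deficient libraries (55.7 ± 21.9 CPM). The DMSO groups overlapped, and the paclitaxel groups overlapped neither with them nor with each other. The log2 fold change under paclitaxel was 5.31 ± 0.291 (SE), or 39.7-fold, in EV-proficient and 6.42 ± 0.274, or 85.5-fold, in EV-deficient libraries. Averaged over both labels it was 5.87 ± 0.199.

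Ifit3, which binds Ifit2 and other members and takes part in their complexes, had the largest fitted log2 fold change of the 5 in each derivative, though within 1 SE of that of Ifit1 in EV-proficient libraries, and below that of Ifit1bl1 (8.63) in EV-deficient libraries without DMSO replicate 1. It had 13, 19 and 10 counts in EV-proficient DMSO (0.355 ± 0.0874 CPM) and 22, 11 and 23 in EV-deficient DMSO (0.375 ± 0.138 CPM). It reached 821, 1069 and 351 counts in EV-proficient paclitaxel (16.4 ± 2.3 CPM) and 5256, 5192 and 2102 in EV-deficient paclitaxel (81.5 ± 41.4 CPM). The DMSO groups overlapped, and the lowest EV-deficient paclitaxel library lay above the highest EV-proficient one. The log2 fold change was 5.52 ± 0.433 (45.8-fold) in EV-proficient and 7.76 ± 0.395 (216-fold) in EV-deficient libraries, and 6.64 ± 0.289 on average.

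Ifit3b, the near-copy of Ifit3, showed the same order of groups. Counts were 8, 7 and 6 in EV-proficient DMSO (0.179 ± 0.014 CPM) and 14, 14 and 3 in EV-deficient DMSO (0.202 ± 0.12 CPM). They were 279, 406 and 172 in EV-proficient paclitaxel (6.53 ± 0.89 CPM) and 1860, 1384 and 720 in EV-deficient paclitaxel (25.5 ± 12.1 CPM). The DMSO groups overlapped and the paclitaxel groups did not. Log2 fold changes were 5.16 ± 0.435 in EV-proficient and 6.92 ± 0.388 in EV-deficient libraries, and 6.04 ± 0.288 on average. The ratio of Ifit3 to Ifit3b counts lay between 2.04 and 3.75 in the 6 paclitaxel libraries and, on far fewer counts, between 0.786 and 7.67 in the 6 DMSO libraries.

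Ifit2, an RNA-binding member linked to apoptosis when abundant, differed from the rest in its untreated level. It had 106, 124 and 80 counts in EV-proficient DMSO (2.63 ± 0.316 CPM) and 207, 215 and 191 in EV-deficient DMSO (4.12 ± 0.399 CPM), well above the floor. Under paclitaxel it had 784, 926 and 371 counts in EV-proficient (15.6 ± 0.639 CPM) and 3473, 3068 and 1708 in EV-deficient libraries (53 ± 21.7 CPM). None of its 4 groups overlapped another. Its log2 fold changes, 2.56 ± 0.241 (5.91-fold) and 3.69 ± 0.224 (12.9-fold), were the smallest of the 5 in each derivative, and the average was 3.12 ± 0.164.

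Ifit1bl1, a relative of Ifit1, was near the floor without drug. It had 4, 3 and 11 counts in EV-proficient DMSO (0.164 ± 0.138 CPM) and 13, 1 and 0 in EV-deficient DMSO (0.0842 ± 0.128 CPM). It had 88, 85 and 30 counts in EV-proficient paclitaxel (1.48 ± 0.263 CPM) and 388, 260 and 199 in EV-deficient paclitaxel (5.37 ± 1.99 CPM). Its DMSO level rested on a few reads, and in EV-deficient DMSO nearly all of them came from replicate 1. The log2 fold change was 3.24 ± 0.558 in EV-proficient and 5.83 ± 0.553 in EV-deficient libraries, and 4.54 ± 0.391 on average. Without EV-proficient DMSO replicate 3 the former was 4.11, and without EV-deficient DMSO replicate 1 the latter was 8.63. No member had at most 3 counts in every library of a group, so no member fold had to be given as a lower bound.

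Ifit1bl2, the non-member between Ifit3b and Ifit1, had 0 counts in all 3 EV-proficient DMSO libraries and 22, 38 and 4 under paclitaxel, which is at least 5.43-fold higher against a floor of 3 counts per library. In EV-deficient libraries it had 0, 0 and 4 counts under DMSO and 114, 50 and 28 under paclitaxel, a log2 fold change of 5.36 ± 0.893.

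Between the EV labels under DMSO no member was called by edgeR in either direction, while 12.4% of all genes were called higher and 10.6% lower in EV-deficient libraries. At an unadjusted p under 0.05 edgeR gave 1 member (Ifit2), against 18.7% of all genes in the higher direction. DESeq2 gave 0 members after adjustment, against 13.2% higher of the 16048 genes that it gave an adjusted p. Before adjustment it gave 1, against 8.76% higher of 35104 genes with any count, so these 2 shares cannot be set against each other. The limma-voom test gave 0 and 0, against 12.1% and 18.3% higher of 18108 genes. The edgeR test called Ifit2 higher with no low-count filter, with only the groups compared and with a block on replicate number. Called higher in these were 8.13% of 35104 genes with any count, 18.0% of 15580 genes and 12.7% of 18108 genes. Ifit2 was the member whose DMSO groups did not overlap, as was so in the same direction for 24.8% of all genes, with a log2 difference of 0.64 ± 0.258. The other log2 differences were 0.14 ± 0.438 for Ifit1, 0.06 ± 0.76 for Ifit3, 0.20 ± 0.716 for Ifit3b and -0.75 ± 0.792 for Ifit1bl1, each with an SE that leaves room for differences in either direction. Without EV-deficient DMSO replicate 1, Ifit1bl1 stood at -3.56 and was called lower.

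Under paclitaxel all 5 members were called higher in EV-deficient than in EV-proficient libraries, against 16.0% of all genes called higher and 21.8% lower (with DESeq2 the Ifit1bl1 call was lost), and the groups did not overlap for any member, which held in the same direction for 19.9% of all genes. The log2 difference was 2.30 ± 0.259 (4.93-fold) for Ifit3, 1.96 ± 0.262 (3.90-fold) for Ifit3b, 1.84 ± 0.402 (3.57-fold) for Ifit1bl1, 1.76 ± 0.201 (3.39-fold) for Ifit2 and 1.24 ± 0.19 (2.36-fold) for Ifit1. Ifit3 thus had the largest and Ifit1 the smallest fitted difference between the treated derivatives. The first place is not firm: the ranges of 1 SE for Ifit3, Ifit3b and Ifit1bl1 overlap, and the division of reads between Ifit3 and Ifit3b is uncertain. The members' median was 1.84, and that of all genes -0.0047. EV-deficient paclitaxel replicate 3 was the lowest library of its group for each of the 5 members. Its summed IFIT level was 107.9 CPM, against 271.7 and 283.4 in replicates 1 and 2 and 61.8 to 65.2 in the EV-proficient paclitaxel libraries. Without it the log2 differences were 2.67, 2.31, 2.10, 2.07 and 1.54 in the same order of genes.

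The interaction, the paclitaxel effect in EV-deficient minus that in EV-proficient libraries, was above 0 for every member, and 3 of 5 were called higher, against 16.9% of all genes called higher and 23.8% lower. It was 2.58 ± 0.9 for Ifit1bl1, 2.24 ± 0.847 for Ifit3, 1.76 ± 0.804 for Ifit3b, 1.12 ± 0.327 for Ifit2 and 1.11 ± 0.487 for Ifit1, in log2 units. The value for Ifit1bl1 rests on few DMSO reads: it was 1.71 without EV-proficient DMSO replicate 3 and 5.39 without EV-deficient DMSO replicate 1, so its place in this order is not firm. Those called were Ifit1bl1, Ifit3 and Ifit2. The count of members called ran from 0 with limma-voom, against 16.1% of all genes higher, to 5 without EV-deficient paclitaxel replicate 3, against 17.3%. It was also 5 with both paclitaxel replicates numbered 3 left out, against 17.7%, and with no low-count filter, against 7.58%. The share without a filter is over 35104 genes with any count, so it cannot be set against the shares over filtered genes. With limma-voom 1 member had an unadjusted p under 0.05, as did 19.7% of all genes in the higher direction. Leaving out EV-proficient DMSO replicate 3 or EV-deficient DMSO replicate 2 gave 1 member, against 14.5% and 13.7% of all genes higher. The dngfr row and Csf1r cross between the same groups, and the part of that crossing in the interaction was not tested.

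**Figure D3:**
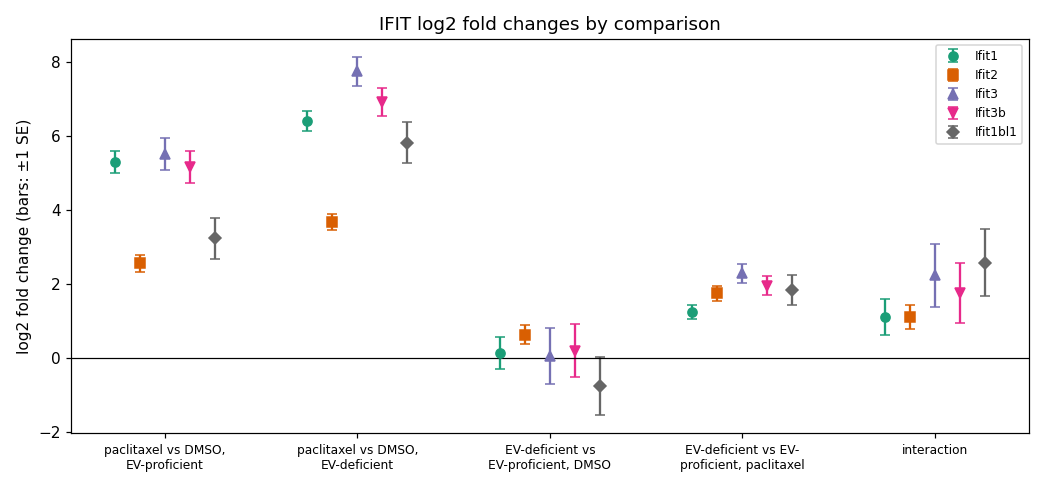
Log2 fold change of each IFIT gene (points, with bars of 1 SE) in the 5 comparisons on the x axis. Both paclitaxel comparisons lie far above 0, the comparison of EV labels under DMSO lies around 0, and that under paclitaxel lies between 1.24 and 2.30.

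The order of the members changed with treatment. Set per kilobase of annotated exons, Ifit2 led under DMSO with a mean of 0.67 ± 0.0804 CPM per kb (SD, n = 3) in EV-proficient and 1.05 ± 0.101 in EV-deficient libraries, and its lowest library lay above the highest of any other member. Ifit1 (0.223 and 0.244) and Ifit3 (0.203 and 0.215) followed and overlapped each other in both groups, and Ifit3b and Ifit1bl1 were lowest, also overlapping; in EV-deficient DMSO the range of Ifit3b reached that of Ifit3. In EV-proficient paclitaxel libraries Ifit3 (9.40 ± 1.32) and Ifit1 (8.90 ± 0.963) led and overlapped, ahead of Ifit2 (3.97 ± 0.163), Ifit3b (3.27 ± 0.445) and Ifit1bl1 (0.655 ± 0.116), which were separate from one another. In EV-deficient paclitaxel libraries Ifit3 averaged 46.7 ± 23.7, Ifit1 21.0 ± 8.26, Ifit2 13.5 ± 5.52, Ifit3b 12.7 ± 6.03 and Ifit1bl1 2.38 ± 0.882 CPM per kb. The ranges of the first 4 overlapped with their neighbours in that order. Within each of the 3 libraries, however, Ifit3 lay above Ifit1 and Ifit1 above Ifit2, at 19.7, 11.4 and 7.13 CPM per kb in replicate 3, while Ifit2 and Ifit3b changed places between libraries. Annotated length includes exons that these cells may not use, so these per-length levels are approximate.

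The make-up of the family's reads, which does not depend on how libraries are scaled, shifted away from Ifit2. Ifit2 held between 62.0% and 70.2% of the summed counts of the 5 members in EV-proficient DMSO libraries and between 70.6% and 79.9% in EV-deficient DMSO. It held 23.5% to 25.0% in EV-proficient and 23.4% to 26% in EV-deficient paclitaxel libraries. The share of Ifit2 thus varied little over the 6 treated libraries, although their summed counts ran from 1579 to 14591. Ifit3 went from 8.97% ± 1.44 (SD, n = 3) to 25.7% ± 3.31 in EV-proficient and from 6.94% ± 2.62 to 35.9% ± 3.83 in EV-deficient libraries. Ifit1 went from 15.1% ± 1.91 to 37.2% ± 4.23 and from 12% ± 1.35 to 25.8% ± 2.04. Ifit3b went from 4.61% to 10.2% and from 3.73% to 11.4% on average, and Ifit1bl1, on few reads, was at 4.28% and 2.33%, and at 1.60% and 2.56%. Among the reads of the treated derivatives, Ifit1 held 33.0% to 41.5% in EV-proficient and 24.5% to 28.1% in EV-deficient paclitaxel libraries, while Ifit3 held 22.2% to 28.8% and 31.9% to 39.6%. Neither pair of ranges overlapped. Ifit3 and Ifit3b summed held 35.1%, 39.7% and 33.1% in EV-proficient paclitaxel replicates 1, 2 and 3, above the share of Ifit1 in replicate 2 only. In EV-deficient paclitaxel the sum held 48.8%, 50.1% and 42.9%, above Ifit1 in each library. Shares of reads are not set per length, and per kilobase Ifit3 averaged above Ifit1 in both treated groups.

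**Figure D4:**
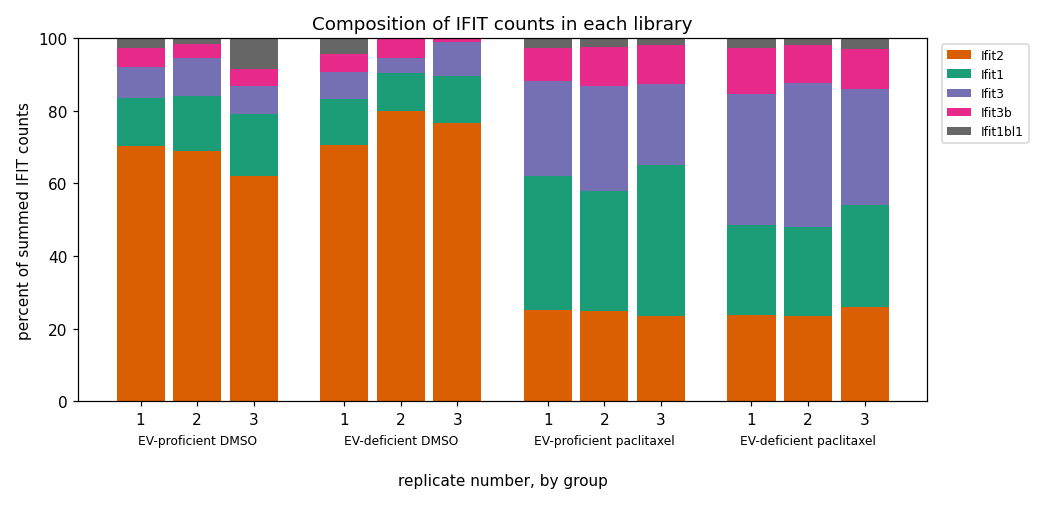
Percent of the summed IFIT counts held by each of the 5 genes (stacked bars from 0 to 100) in each library, by group and replicate number. Ifit2 fills most of the DMSO bars and at most 26% of the paclitaxel bars, and Ifit1 is larger in EV-proficient than in EV-deficient paclitaxel libraries.

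Genes of the interferon pathway that controls the family were taken from 5 lists of 58 genes in all, chosen by role with earlier results of these data known; 37 passed the low-count filter. Under paclitaxel 26 of the 37 (70.3%) were called higher and 1 (2.7%) lower in EV-proficient libraries, where 31.1% of all genes were higher and 27.1% lower. In EV-deficient libraries 29 (78.4%) were called higher and 4 (10.8%) lower, against 32.4% and 30.5% of all genes. Averaged over both labels 27 were higher and 4 lower, against 37.1% and 31.3% of all genes. The median log2 fold change of the 37 was 0.60 in EV-proficient and 1.12 in EV-deficient libraries, and that of all genes 0.05 and 0.07. A further 2 lists, of 18 genes, cover translation steps on which IFIT proteins act.

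Interferon genes were close to undetectable beside the IFIT levels of the treated libraries; under DMSO both were low. Of 21 ligand genes, 1 passed the filter: Ifnab, with 4, 2 and 2 counts in EV-proficient DMSO, 3, 3 and 7 in EV-deficient DMSO, 8, 19 and 1 in EV-proficient paclitaxel and 22, 19 and 25 in EV-deficient paclitaxel libraries. The EV-deficient paclitaxel libraries lay above the EV-deficient DMSO libraries (0.41 ± 0.00053 against 0.0898 ± 0.0553 CPM), and the EV-proficient groups overlapped. Ifnab reached the filter's level in 0 of 6 DMSO libraries and so was tested only because of its treated libraries. Its call in EV-deficient libraries is counted among the 29 above, and its call in the average over both labels among the 27. Both calls are therefore no evidence of a difference. Ifnb1, encoding interferon beta, had at most 3, 1, 5 and 10 counts in EV-proficient DMSO, EV-deficient DMSO, EV-proficient paclitaxel and EV-deficient paclitaxel libraries. In EV-deficient libraries its mean under paclitaxel, 0.144 CPM, was at least 2.37-fold higher than a floor of 3 counts per library under DMSO, and in EV-proficient libraries no fold can be given. Ifng, encoding interferon gamma, had 15, 3 and 6 counts in EV-deficient paclitaxel and at most 2 in any other library. The highest counts in a library were 31 for Ifna13, 10 for Ifnz, 9 for Ifnl3, 8 for Ifnl2, 6 for Ifne and 4 for Ifnk. Interferon protein was not measured.

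Of 9 receptor subunits and their kinases, 7 were called under paclitaxel in EV-proficient and 9 in EV-deficient libraries, all of them higher, which is 77.8% and 100% of the list against 31.1% and 32.4% of all genes. Jak2, a kinase of the interferon gamma receptor, rose by log2 0.78 ± 0.0905 and 1.81 ± 0.0918, Ifngr2, a subunit of that receptor, by 0.48 ± 0.0721 and 1.54 ± 0.0724, and Ifnlr1, the type III receptor subunit, by 0.91 ± 0.114 and 1.38 ± 0.113. Of 8 transcription factors 6 were called in EV-proficient libraries, all higher, and 7 higher and 1 lower in EV-deficient libraries, so that 75% and 87.5% were higher. With upper-quartile scaling 7 were higher and 0 lower in each derivative. Irf7, a factor that amplifies interferon genes, rose from 1.05 ± 0.235 to 17.4 ± 1.41 CPM (log2 4.03 ± 0.231) and from 1.10 ± 0.0937 to 37.7 ± 12.6 CPM (5.09 ± 0.222). Irf9, the DNA-binding subunit of the complex that recognises the response element shown above, rose by 1.34 ± 0.123 in EV-proficient and by 2.23 ± 0.123 in EV-deficient libraries. These 5 genes were picked for naming because they passed the edgeR threshold without overlap in both derivatives, so their passing is no separate result.

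Among 13 nucleic acid sensors and adaptors, 11 were called higher and 1 lower in EV-proficient libraries, and 9 higher and 2 lower in EV-deficient libraries; 84.6% and 69.2% were thus higher, against 31.1% and 32.4% of all genes. Zbp1, a sensor of left-handed nucleic acid, rose by log2 2.49 ± 0.29 and 3.8 ± 0.287, and Dhx58, a helicase that tunes RNA sensing, by 1.66 ± 0.249 and 3.04 ± 0.242. Tmem173, encoding the DNA-sensing adaptor STING, rose by 2.46 ± 0.169 and 2.08 ± 0.163. The lower calls, named after their values were seen, were Tbk1, a kinase that activates interferon regulatory factors, in EV-proficient libraries (-0.39 ± 0.07), and in EV-deficient libraries Mavs, the adaptor of the RNA sensors (-0.58 ± 0.0708), and Mb21d1, encoding the DNA sensor cGAS (-1.84 ± 0.107). In EV-proficient libraries Mavs (0.17 ± 0.0714) and Mb21d1 (0.34 ± 0.106) were called higher, and median-of-ratios scaling ended the call for Mavs; upper-quartile scaling added a higher call for Tbk1 in EV-deficient libraries. Of 6 feedback inhibitors tested, 2 were called in EV-proficient libraries, both higher, and 3 higher and 1 lower in EV-deficient libraries, the lower call being lost with upper-quartile scaling. In EV-proficient libraries the share higher, 33.3%, was close to the 31.1% of all genes, although upper-quartile scaling added Socs3 and so gave 3 of 6, and the list's median log2 fold change was 0.11 there and 0.0071 in EV-deficient libraries. Usp18, which blocks the type I receptor, rose by 4.03 ± 0.287 and 5.65 ± 0.281, and Ptpn6, a phosphatase, by 1.14 ± 0.121 and 0.64 ± 0.118.

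Genes of the translation steps that IFIT proteins act on were called in both directions, where 31.1% of all genes were called higher and 27.1% lower in EV-proficient libraries, and 32.4% and 30.5% in EV-deficient libraries. Of 5 genes for methylation at or next to the cap, among them Cmtr1 and Cmtr2, which write the ribose marks, 2 were called in EV-proficient libraries, both higher, and 1 higher and 1 lower in EV-deficient libraries; median-of-ratios scaling added 1 lower call in EV-proficient libraries (Cmtr2) and upper-quartile scaling 1 higher call in EV-deficient libraries (Rnmt). Of 12 eIF3 subunits tested, 2 were called higher and 7 lower in EV-proficient libraries, and 10 were called in EV-deficient libraries, all lower, so that 58.3% and 83.3% of the list were lower. Upper-quartile scaling gave 5 eIF3 calls upward against 7 downward in EV-proficient libraries, and 2 against 9 in EV-deficient ones. Eif3b went from 957 ± 40.6 to 349 ± 1.77 CPM and from 801 ± 20.1 to 432 ± 37.2 CPM. Eif3l fell by 0.69 ± 0.0579 and 1.03 ± 0.0581 on the log2 scale, and Eif3i fell by 0.53 ± 0.0609 and 0.91 ± 0.0611.

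**Figure D5:**
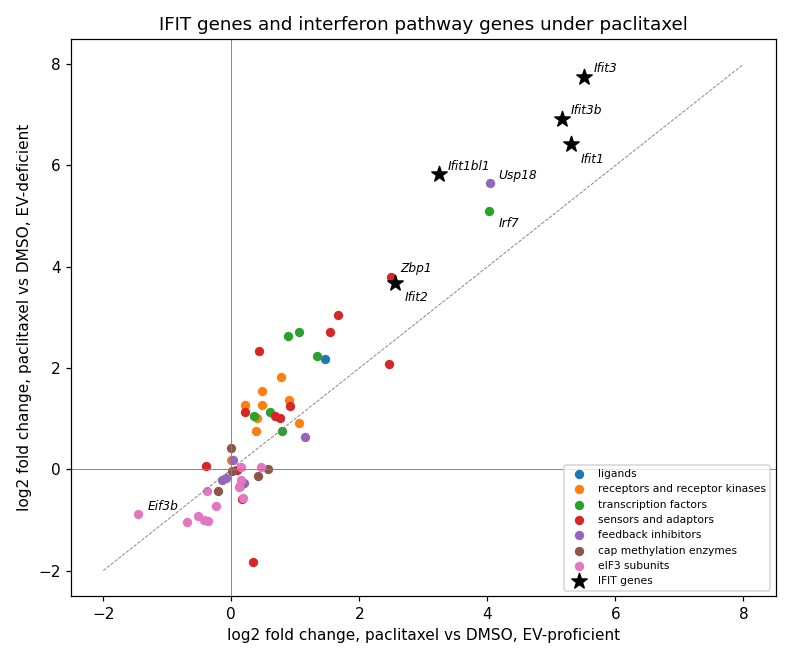
Log2 fold change under paclitaxel in EV-proficient (x axis) and EV-deficient libraries (y axis) for the 5 IFIT genes (stars) and the 54 genes tested from the 7 pathway and translation lists (dots, coloured by list), with a dashed line of equal change. IFIT genes, Irf7, Usp18 and Zbp1 lie at the upper right, and eIF3 subunits lie mostly below 0.

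The genes whose log2 CPM most resembled the members' mean over the 12 libraries were, by Pearson's r, Usp18 (0.997), Fth1 (0.996), Ifi203 (0.995), Dhrs3 (0.994), B4galt1 (0.993), Ifi204 (0.993), Irf7 (0.992), Sgtb (0.992), Cstb (0.992) and Crebl2 (0.992), out of 12590 candidates, 1350 of which had an r above 0.9. Most of this likeness is the separation of the 4 groups. Within groups, the r of the deviations from the group means was 0.960 for Usp18, 0.847 for Fth1 and 0.749 for Ifi204, and between 0.535 and 0.698 for the other genes. EV-deficient paclitaxel replicate 3 was the lowest of its group for every member and for Usp18 (9.31 against 18.5 and 19.6 CPM). The r of deviations, also among the members, may thus rest largely on 1 library, which was not tested. No r of deviations over all candidates is given to set beside them. The sizes of change differed widely among the genes listed. Ifi203, an interferon-inducible gene of the same class as Ifi204, changed by log2 4.52 ± 0.342 and 6.20 ± 0.305 under paclitaxel in EV-proficient and EV-deficient libraries, whereas Fth1, the ferritin heavy chain, changed by 0.62 ± 0.0617 and 0.90 ± 0.0619. Among the members themselves r over the 12 libraries ran from 0.9 (Ifit2 with Ifit1bl1) to 0.993 (Ifit1 with Ifit3), and r of deviations from 0.0687 for the first of these pairs to 0.848 for Ifit1 with Ifit2.

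The nearest genes outside the cluster were compared in the same fit, 7 of them past the low-count filter. Under paclitaxel 2 of the 7 were called in EV-proficient libraries, both lower (Acta2 and Kif20b), or 28.6% against 27.1% of all genes, and upper-quartile scaling added a higher call for Lipa (log2 0.25, adjusted p = 0.0329 by edgeR, against 0.19 and 0.111). In EV-deficient libraries 4 were called higher (Stambpl1, Fas, Lipa and Slc16a12) and 1 lower (Kif20b), against 32.4% and 30.5% of all genes; upper-quartile scaling ended the Kif20b call there. Acta2, which reached the filter's level only in DMSO libraries, was also called lower there without EV-deficient paclitaxel replicate 2. Lipa, encoding lysosomal acid lipase and lying 23220 bases from Ifit2, stood at 16.8 ± 0.325 and 19.1 ± 2.14 CPM in EV-proficient and at 15.1 ± 0.941 and 28.7 ± 2.81 in EV-deficient libraries under DMSO and paclitaxel. Slc16a12, a transporter gene 18394 bases from Ifit1 in the same gene models and tested only because of its treated libraries, stayed below 1 CPM on average in each group, at 0.392 ± 0.185 CPM in EV-deficient paclitaxel. Fas, a death receptor gene, had 0.327 ± 0.082 and 1.64 ± 0.593 CPM under DMSO and paclitaxel in EV-deficient libraries. Pank1 stayed between 16.4 and 19.2 CPM on average in all 4 groups.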

How the data were processed

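Polyadenylated RNA from 12 libraries was sequenced after stranded library preparation, as the labels' protocols describe. What the authors deposited is a single table of unnormalised read counts for Ensembl genes. STAR 2.5.0a and GRCm38 are named in the submitters' processing notes; the counting program, annotation release and use of strand are not given in the sources used here. Columns were matched to samples by the sample descriptions. The table's 2 added rows, gfp (0 counts throughout) and dngfr, stayed out of library sizes and tests.

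The test was edgeR 4.0.16 under R 4.3.3: filterByExpr on the 4 groups (minimum count 10), trimmed mean of M values scaling, 1 quasi-likelihood fit with a mean per group over all 12 libraries, and Benjamini-Hochberg adjustment over 18108 genes with a threshold of 0.05. A fold change was divided by the square root of F to give its SE. Replicates were compared before averaging: chi-square per degree of freedom ranged over genes from 4.49 to 31.3 in 12 pairs, none within sampling noise. The fit was tested on simulated counts.

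Family shares are counts of a member over the summed counts of the 5. An exact permutation test of these shares had been planned; it is not quoted, because the shares come from the contrasts that chose the members. Gene models came from GENCODE M21 and start windows from RefSeq, both on GRCm38, as is the table; identities were computed with Biopython 1.88 from annotated coding sequences. The members and all gene lists were chosen with earlier results of these data known. Genes named were the members and Ifit1bl2, the 10 genes with the highest correlation (at least 1 CPM on average), at most 3 genes per pathway list that passed the threshold without overlap in both paclitaxel comparisons, ligands with over 3 counts in a library, and chromosomal neighbours; 1 gene that the rule names is not reported here. Alternatives were 2 other scalings, 2 other filters, DESeq2 1.42.0, limma-voom 3.58.1, a block on replicate number, fits to the compared groups alone, Ifit3 and Ifit3b summed, and each library left out. The average over EV labels and leaving out both paclitaxel replicates numbered 3 were added after the data were seen.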

Additional observations from a re-analysis of the deposited data

Results flagged for a closer look

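The paclitaxel effect differed between the EV labels, by the interaction term of the edgeR fit, for 3 members: Ifit2 by 1.12, Ifit3 by 2.24 and Ifit1bl1 by 2.58 on the log2 scale, larger in EV-deficient libraries each time. Of all genes tested 16.9% were called higher and 23.8% lower in this interaction. The Ifit1bl1 value was 1.71 without EV-proficient DMSO replicate 3 and 5.39 without EV-deficient DMSO replicate 1. These are the same contrasts from which the family was chosen, and the call for each was lost under at least 1 alternative.

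The dngfr row, which no comparison used, had 10.9 CPM on average in EV-deficient paclitaxel libraries, above its DMSO controls. Its mean moved opposite ways under paclitaxel, with log2 ratios of -1.47 in EV-proficient and 2.35 in EV-deficient libraries, and every paclitaxel library lay on that side of its own controls. The difference between those ratios was not tested.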

How the results depend on the processing

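In both paclitaxel comparisons all members stayed past the threshold in every setting run. In the fit reported above, 31.1% and 32.4% of all genes were called higher in these comparisons. Under paclitaxel the difference between EV labels also stayed past it, except for Ifit1bl1 with DESeq2, against 16.0% of all genes higher in that fit. The family was chosen from these contrasts, and Ifit3b and Ifit1bl1 passed the low-count filter only through treated libraries, so nothing is concluded from this. Between EV labels under DMSO 1 member (Ifit2), against 0, was called higher with no low-count filter, only the groups compared or the replicate block. Called higher in these were 8.13% of 35104 genes with any count, 18.0% of 15580 genes and 12.7% of 18108 genes. Replicate numbers did not pair the libraries (r of deviations from -0.0812 to 0.097 over 18 same-number pairs, 4 of 12 libraries closest to their own number). The block changed no other member count by over 1.5 times. The Ifit1bl1 interaction, 2.58, ran from 1.71 to 5.39 with a library left out. Interaction calls, 3 of 5 against 16.9% of all genes higher, became 5 with no filter (7.58% of 35104 genes with any count). They also became 5 with both paclitaxel replicates numbered 3 left out (17.7%), 0 with limma-voom (16.1%), and 1 to 5 with a library left out. Genes of the 7 lists called between EV labels under DMSO, 19 of 54 (12.4% of all genes were called higher and 10.6% lower), fell to between 10 and 15 with a library left out, to 12 without EV-proficient DMSO replicate 1 or EV-deficient DMSO replicate 2 and to 10 without EV-deficient DMSO replicate 1. Signs changed for values that were not called with all libraries. Between EV labels under DMSO, Ifit3b was -0.0435 with limma-voom, and with a library left out Ifit3 ran from -0.171 to 0.311, Ifit3b from -0.102 to 0.587 and Ifit1bl1 from -3.56 to 0.122. The log2 ratio of Ifit1bl1 to the other members, 0.48 higher under paclitaxel, was -0.193 with 2 added to each count and ran from -0.0232 to 1.12 with a library left out; between EV labels under paclitaxel it ran from -0.0168 to 0.297, and that of Ifit2 from -0.0708 to 0.0285. With a library left out the paclitaxel change in EV-proficient libraries ran from -1.86 to 0.25 for Fas and from -0.0362 to 0.156 for Pank1, and with upper-quartile scaling Pank1 was 0.0314 in EV-deficient libraries. Of these extremes, -3.56 for Ifit1bl1 and -1.86 for Fas were past the threshold. That scaling moved the median of all genes by 0.183 for paclitaxel in EV-deficient libraries and by 0.123 for the interaction, and Kif20b, lower in EV-deficient libraries, lost its call, while Lipa gained one in EV-proficient libraries. The causes were not tested. Depth limits the DMSO levels of Ifit3b and Ifit1bl1, which rest on 14 counts or fewer per library.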
